A study of Mus musculus with 8 samples.

Results

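The 10 genes described here build the acetylcholine receptor of skeletal muscle and the synapse at which motor nerves drive it. They were Chrna1, Chrnb1, Chrnd, Chrne and Chrng, which encode the receptor's alpha, beta, delta, epsilon and gamma subunits, Musk, Lrp4, Dok7 and Rapsn, which cluster the receptor under the nerve ending, and Ncam1, the neural cell adhesion molecule. Each was taken from the deposited tables by its symbol, and all 10 of 10 were found among 24848 gene symbols. RNA sequencing was done on ischemic tibialis anterior, a muscle of the lower leg, in 8 libraries. The 4 praliciguat libraries came from mice on chow with 75 ppm of the drug, a stimulator of soluble guanylate cyclase, the enzyme that answers nitric oxide by making cGMP. The 4 placebo libraries came from mice on control chow. All 8 libraries came from male mice of genotype Leprdb/db, whose defect in the leptin receptor is present in every tissue and makes them obese and diabetic. All had hind limb ischemia surgery, so neither a lean nor an unoperated muscle was compared here. The diets began on day -3 and lasted 31 days, and muscle was taken on day 28. The drug diet aimed at the peak plasma level reached by 10 mg/kg/day given by mouth. The ages of the mice are not given in the labels, nor do they state that every library had its own mouse. A p-value here therefore measures the spread between these libraries.

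In adult muscle the receptor holds alpha, beta, delta and epsilon subunits and sits almost wholly under the nerve ending. In fetal muscle, and again in denervated or regenerating fibres, the gamma subunit takes the place of epsilon and receptors spread over the fibre. Agrin from the nerve binds LRP4, which activates the receptor tyrosine kinase MuSK; DOK7 acts inside the fibre as MuSK's activator, and rapsyn tethers the receptors into a cluster. NCAM lies at the adult junction and spreads over the fibre surface after denervation and in regenerating fibres, and is also made by Schwann cells and satellite cells.

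Total expected counts, RSEM's estimates of reads per gene, were 27271020 to 31896205 in praliciguat libraries and 21099764 to 29635817 in placebo libraries. Fast fibre genes marked the tissue in every library: 10 such genes summed to 174600 to 236000 CPM, counts scaled to the size of the library, in praliciguat libraries and 171500 to 209200 CPM in placebo libraries. Of 8 motor axon genes, Chat and Slc18a3, which make and load acetylcholine, had 0 counts in all 8 libraries, and the list summed to 0.471 to 9.19 CPM in praliciguat libraries and 1.267 to 6.004 CPM in placebo libraries. Most of this sum came from Slc5a7, with 690 reads over the 8 libraries. No other gene of the list had more than the 17 reads of Nefm. Whether these muscles kept their nerve supply was not tested by these values.

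The receptor genes are known targets of myogenic factors, which bind E-boxes, and of the ETS factor GABP, which binds the N-box of synaptic genes. The 250 bases before a transcript start given by RefSeq are shown for the gamma, epsilon and alpha subunit genes because the gamma and epsilon subunits exchange places between fetal and adult receptors, and alpha is common to both. They come from RefSeq on GRCm38.p6, the assembly of mm10, for 6 of the 10 genes with an entry, and lie at chr1:87205561-87205810 on the plus strand (Chrng), chr11:70619195-70619444 on the minus strand (Chrne) and chr2:73580339-73580588 on the minus strand (Chrna1). Capitals mark E-boxes (CANNTG) and N-boxes (CCGGAA), searched on both strands.
Chrng: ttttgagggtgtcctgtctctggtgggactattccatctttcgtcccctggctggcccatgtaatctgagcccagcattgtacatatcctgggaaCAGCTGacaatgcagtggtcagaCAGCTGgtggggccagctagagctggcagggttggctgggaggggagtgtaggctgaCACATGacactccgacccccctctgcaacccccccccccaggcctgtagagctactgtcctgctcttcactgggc
Chrne: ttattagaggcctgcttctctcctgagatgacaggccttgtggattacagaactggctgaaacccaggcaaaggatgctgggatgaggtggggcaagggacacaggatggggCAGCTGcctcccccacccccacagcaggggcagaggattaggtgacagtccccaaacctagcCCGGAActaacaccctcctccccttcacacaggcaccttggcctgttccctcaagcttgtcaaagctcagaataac
Chrna1: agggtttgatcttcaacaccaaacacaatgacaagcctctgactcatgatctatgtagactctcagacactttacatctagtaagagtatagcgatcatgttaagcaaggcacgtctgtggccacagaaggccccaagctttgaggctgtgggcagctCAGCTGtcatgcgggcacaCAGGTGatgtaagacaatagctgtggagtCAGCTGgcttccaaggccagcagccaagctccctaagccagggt
The Chrng window held 3 E-boxes, of which 2 had the core CAGCTG, and no N-box. The Chrna1 window likewise held 3 E-boxes, 2 with the core CAGCTG, and no N-box. The Chrne window held 1 E-box, CAGCTG, and 1 N-box that began 76 bases before that transcript's start, which lies 19 bases inside the outer edge of the gene given below. The E-box and the N-box shared no base in these windows. Of 32851 promoters of the same length, 66.2% held an E-box, 13.0% the CAGCTG core and 12.0% an N-box, so an E-box alone is common. These matches describe letters and not bound sites.

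Chrnd and Chrng are neighbours on chromosome 1 in the same direction, Chrnd at chr1:87190597-87200070 and Chrng at chr1:87205811-87211835, with 5740 bases between them. Chrna1 lies at chr2:73563281-73580338, and Rapsn (chr2:91035472-91045729) and Lrp4 (chr2:91457456-91513901) are on the same chromosome. Chrnb1 (chr11:69784036-69795966) and Chrne (chr11:70614883-70619213) share chromosome 11. Musk lies at chr4:58285729-58377848, Dok7 at chr5:35056571-35087839 and Ncam1 at chr9:49502129-49799393. Genes annotated on top of Chrne (4930544D05Rik) and of Ncam1 (Gm11149) had 0 counts in all 8 libraries, and those on Chrna1 (Gm30940) and Rapsn (Gm13778) have no row in the tables, so their reads cannot be told apart.

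Levels between the genes were compared in TPM, abundance scaled by transcript length. Over all 8 libraries Chrnb1 averaged 35.54 TPM, Rapsn 28.31, Chrne 18.33, Dok7 17.6, Chrna1 10.15, Ncam1 4.32, Lrp4 3.99, Chrnd 3.25, Musk 1.64 and Chrng 0.92 TPM. Between neighbours in this order, only Chrnb1 and Rapsn had ranges that did not overlap. Rapsn exceeded Chrne in 8 of 8 libraries and Chrna1 exceeded Ncam1 in 8 of 8, although their ranges overlapped. Chrne exceeded Dok7 in 5 of 8 libraries and Ncam1 exceeded Lrp4 in 5 of 8, so neither pair could be ordered.

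**Figure D1:**
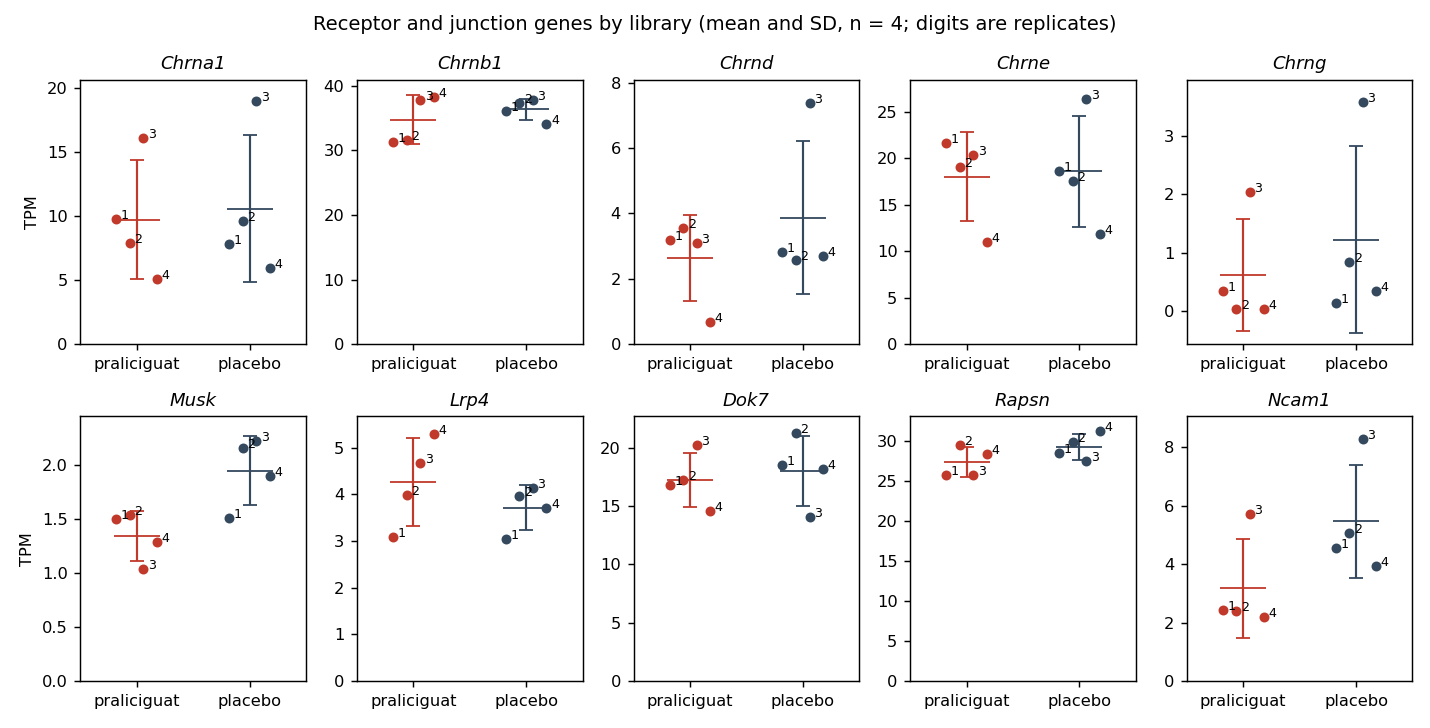
TPM of the 10 genes in praliciguat (left, red) and placebo (right, dark) libraries; points are libraries numbered by replicate, the horizontal bar is the mean and the whisker the SD over 4 libraries. Placebo replicate 3 is the highest library for 6 genes (Chrna1, Chrnd, Chrne, Chrng, Musk, Ncam1), and Ncam1 is at 2.19 to 2.42 TPM in 3 praliciguat libraries but 5.71 TPM in the other.

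None of the 9 genes that entered the test across all genes was called different between the diets. Of 13569 genes tested, 9 of the 10 were among them, because Chrng had too few reads. With edgeR's quasi-likelihood test and an adjusted p under 0.05, 0% of all genes were called higher and 0% lower, so 0 of 9 called is no result about these genes. At an unadjusted p under 0.05, 265 genes (1.95%) were higher with praliciguat and 513 (3.78%) lower, and 1 of the 9 receptor and junction genes, Ncam1, was among the lower ones. DESeq2 called 15 genes higher and 115 lower, none of them among the same 9. Of the 9 genes tested, 8 had a fold change below 0, against 44.8% of all genes, with a median log2 fold change of -0.06 against 0.02 over all genes. In none of the 9 did the diets separate fully, which 2.54% of all genes did with praliciguat below placebo and 1.32% with praliciguat above. Libraries with fewer fibres or junctions and libraries with less RNA per fibre cannot be told apart in bulk muscle.

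**Figure D2:**
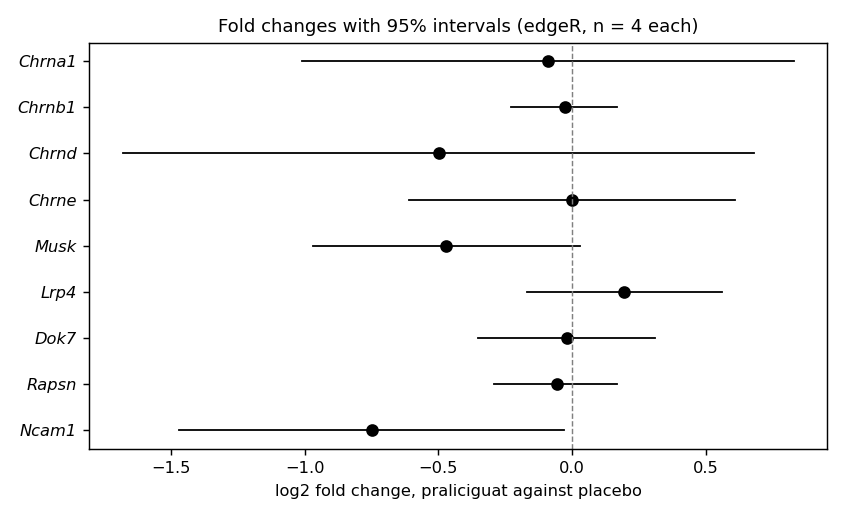
Log2 fold change of praliciguat against placebo with its 95% interval for the 9 genes tested, from edgeR's quasi-likelihood fit on 4 libraries of each group. Chrnb1 and Rapsn have the narrowest intervals, Chrna1 and Chrnd the widest, and Ncam1 alone has an interval that leaves out 0 before adjustment over all genes.

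None of the 4 tested receptor subunits was called, and the intervals of their fold changes were widest for Chrna1 and Chrnd. Chrna1, the subunit with the main face of the acetylcholine binding site, was at 9.79, 7.93, 16.07 and 5.09 TPM in praliciguat libraries 1 to 4 and at 7.82, 9.58, 18.94 and 5.98 TPM in placebo libraries 1 to 4. Replicate 3 was high and replicate 4 low on both diets, although these numbers pair no libraries across the diets, and the groups overlapped. Its log2 fold change was -0.09 ± 0.40 (SE, n = 4 each), with an interval of -1.01 to 0.83 and an adjusted p of 0.996. The sign of this value turned without placebo replicate 3 (0.31) and without praliciguat replicate 4 (0.12).

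Chrnb1, the beta subunit, which contacts rapsyn, varied least of the subunits, with 31.36, 31.53, 37.85 and 38.3 TPM in praliciguat libraries and 36.03, 37.35, 37.8 and 34.11 TPM in placebo libraries. The groups overlapped. Its log2 fold change of -0.03 ± 0.09 (SE, n = 4 each) had an interval of -0.23 to 0.17 (adjusted p = 0.995).

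Chrnd, the delta subunit, was at 3.19, 3.55, 3.1 and 0.67 TPM in praliciguat libraries and at 2.83, 2.58, 7.37 and 2.7 TPM in placebo libraries. Placebo replicate 3 stood above the other 3 placebo libraries and praliciguat replicate 4 below the other 3 praliciguat libraries. The log2 fold change was -0.50 ± 0.52 (SE, n = 4 each, adjusted p = 0.984) and came down to -0.02 in its smallest leave-one-out value. Mean log2 CPM differed by 0.36 in the lower run of title numbers, praliciguat above placebo, and by -1.54 in the upper run, praliciguat below placebo.

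Chrne, the adult epsilon subunit, was at 21.63, 19.13, 20.34 and 11.04 TPM in praliciguat libraries and at 18.7, 17.62, 26.36 and 11.82 TPM in placebo libraries. Replicate 4 was lowest in both groups. The groups averaged 14.6 CPM each and the log2 fold change was -0.001 ± 0.27 (SE, n = 4 each, adjusted p = 0.999), with its sign turning under several settings.

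Reads of the fetal subunit were found in all 8 libraries, at low levels that differed widely between libraries. Chrng had 9, 1, 65 and 1 reads in praliciguat libraries 1 to 4 and 3, 25, 97 and 9 reads in placebo libraries 1 to 4, which is 0.35, 0.04, 2.04 and 0.04 TPM with praliciguat and 0.14, 0.84, 3.58 and 0.34 TPM with placebo. Both groups' highest library was replicate 3, and the groups overlapped. Without a count filter its log2 fold change was -0.96 ± 1.27 (SE, n = 4 each, edgeR adjusted p = 0.938). This value turned sign, to 0.41, without placebo replicate 3 and went to -3.02 without praliciguat replicate 3.

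Set against the adult subunit, the fetal subunit was the minor partner everywhere. Chrng was 1.57%, 0.195%, 9.10% and 0.324% of Chrng and Chrne together, per length, in praliciguat libraries 1 to 4 (exact binomial 95% intervals 0.720 to 2.97%, 0.00493 to 1.08%, 7.08 to 11.5% and 0.00820 to 1.80%). In placebo libraries 1 to 4 it was 0.729%, 4.55%, 12.0% and 2.83% (intervals 0.151 to 2.12%, 2.96 to 6.66%, 9.79 to 14.5% and 1.30 to 5.31%). The intervals cover counting error only. The mean was 2.80 ± 4.25% in praliciguat libraries and 5.02 ± 4.89% in placebo libraries (SD, n = 4 each), and the fetal share differed more within a diet than between diets. The log2 ratio of Chrng to Chrne, with 0.1 TPM added to each, averaged -5.57 ± 1.66 in praliciguat libraries and -4.53 ± 1.42 in placebo libraries (SD, n = 4 each). The difference of -1.03 gave p = 0.4 in an exact two-sided permutation test over 70 groupings, whose smallest p is 0.0286. It was -1.08 in the lower run of title numbers and -0.98 in the upper run, with 2 libraries of each diet in each run, and was not tested within runs.

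**Figure D3:**
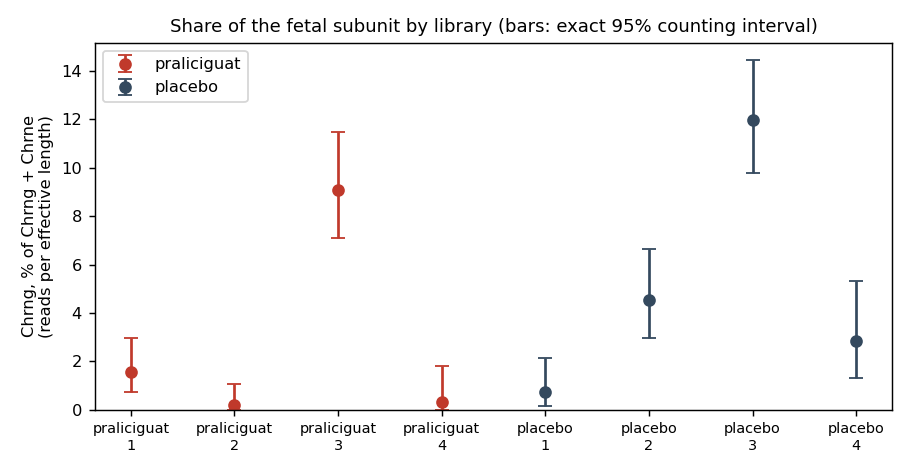
Chrng as a percentage of Chrng plus Chrne per effective length, in praliciguat libraries (left, red) and placebo libraries (right, dark), with exact 95% binomial intervals. Replicate 3 is highest on both diets, at 9.10% with praliciguat and 12.0% with placebo.

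None of the 4 clustering genes was called, and Musk had the largest fold change among them. Musk, the receptor tyrosine kinase that starts clustering, was at 1.5, 1.54, 1.04 and 1.29 TPM in praliciguat libraries and at 1.51, 2.16, 2.22 and 1.9 TPM in placebo libraries. Only the lowest placebo library, replicate 1, lay within the range of the praliciguat libraries. The log2 fold change was -0.47 ± 0.22 (SE, n = 4 each), with an interval of -0.97 to 0.03 and an adjusted p of 0.912. Its mean log2 CPM difference was -0.19 in the lower run and -0.73 in the upper run.

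Lrp4, agrin's receptor, was the one gene of the 9 with a fold change above 0, at 3.09, 3.98, 4.68 and 5.29 TPM in praliciguat libraries and 3.05, 3.97, 4.14 and 3.7 TPM in placebo libraries. In TPM, praliciguat replicates 3 and 4 lay above all placebo libraries. In CPM, praliciguat replicate 2 did so too, at 17.92 CPM against at most 17.3 CPM with placebo, and replicate 1 lay within the placebo range. The groups thus overlapped, with a log2 fold change of 0.20 ± 0.16 (SE, n = 4 each, adjusted p = 0.984). It was 0.075 without praliciguat replicate 4 and 0.001 without praliciguat replicates 3 and 4. Dok7, the cytoplasmic activator of MuSK, was at 16.82, 17.27, 20.22 and 14.53 TPM in praliciguat libraries and at 18.49, 21.24, 14.02 and 18.19 TPM in placebo libraries, a log2 fold change of -0.02 ± 0.15 (adjusted p = 0.996). Rapsn, the scaffold protein under the receptor, was at 25.74, 29.53, 25.8 and 28.37 TPM in praliciguat libraries and at 28.5, 29.85, 27.48 and 31.23 TPM in placebo libraries, a log2 fold change of -0.06 ± 0.10 (adjusted p = 0.987). The interval of Rapsn, -0.29 to 0.17, was the narrowest of these 4 genes.

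Ncam1 had the largest fold change of the 9 genes. It was at 2.42, 2.38, 5.71 and 2.19 TPM in praliciguat libraries and at 4.55, 5.07, 8.29 and 3.95 TPM in placebo libraries. Praliciguat replicates 1, 2 and 4 lay below every placebo library, and praliciguat replicate 3 lay above 3 of the 4. Its mean was 9.24 ± 4.21 CPM in praliciguat libraries and 15.6 ± 4.90 CPM in placebo libraries (SD, n = 4 each). The log2 fold change was -0.75 ± 0.32 (SE), with an interval of -1.47 to -0.03 and an unadjusted edgeR p of 0.0438, and it did not pass over all genes (adjusted p = 0.836). It was -0.93 in the lower run of title numbers and -0.64 in the upper run, as differences of mean log2 CPM. Without praliciguat replicate 3 it was -1.12 ± 0.22 with an unadjusted edgeR p of 0.000602 and an adjusted p of 0.128, and the groups did not overlap, as for 5.9% of all genes. This leaves out the very library that made the groups overlap, so the smaller p is no separate support. In that fit 872 genes were lower at an unadjusted p under 0.05, against 513 with all libraries. Without placebo replicate 3 the log2 fold change of Ncam1 was -0.52 (adjusted p = 0.898), and over all settings its adjusted p ran between 0.126 and 1.

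Markers of Schwann cells and satellite cells, which make NCAM, and of other cells and fibre types, are given beside these values. The 10 Schwann cell genes summed to 102.1 to 222.8 CPM in praliciguat libraries and 162.9 to 372.5 CPM in placebo libraries, and 10 of 10 had a fold change below 0, with a median of -0.50, although the ranges overlapped and none was called. The 7 satellite cell genes summed to 86.32 to 102.3 CPM in praliciguat libraries and 96.12 to 122.5 CPM in placebo libraries, with 6 of 7 below 0 and none called. Sdc4, at 38.08 to 73.1 CPM, and Cdh15, at 15.1 to 28.03 CPM, weighed heavily in these sums. Pax7, Myf5 and Calcr each reached at most 2.484 CPM in any library. The 6 natural killer cell genes summed to at most 1.458 CPM in praliciguat libraries and 1.818 CPM in placebo libraries. The 6 genes of newly formed fibres summed to 281.3, 117, 588.3 and 106.2 CPM in praliciguat libraries 1 to 4 and to 157.7, 712, 870.7 and 106.5 CPM in placebo libraries 1 to 4. Actc1 made up most of these sums, at 84.86 to 520.3 CPM in praliciguat libraries and 54.6 to 760.3 CPM in placebo libraries. Of the 6 genes, 5 lay below 0, with a median of -0.67, and none was called. The 8 slow fibre genes summed to 191.3 to 354.1 CPM in praliciguat libraries and 660 to 1880 CPM in placebo libraries, without overlap and with 8 of 8 below 0. None of the 8 was called, the lowest adjusted p from edgeR being 0.0776 (Tnnt1). Singly, 2.54% of all genes had every praliciguat library below every placebo library. The 6 endothelial genes summed to 316.5 to 487.1 CPM in praliciguat libraries and 452.2 to 571.9 CPM in placebo libraries. Of these, 6 of 6 lay below 0 and none was called. The part of these cells and fibres in the values of Ncam1 and the receptor genes was not tested.

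The libraries with the most fetal subunit were also those with the most Mymk and Myog RNA. Mymk, the membrane activator of myoblast fusion, had 10, 7, 170 and 11 reads in praliciguat libraries 1 to 4 and 5, 70, 197 and 5 reads in placebo libraries 1 to 4. Myog, the factor that drives myoblasts into fibres and answers denervation, had 220, 145, 401 and 129 reads in praliciguat libraries and 84, 164, 383 and 101 reads in placebo libraries. Both genes were highest in replicate 3 of each diet, as were Chrng, Chrna1 and Ncam1. Of all 10 receptor and junction genes, 4 were highest in replicate 3 with praliciguat and 5 with placebo, in CPM. On each diet 2 of the 10 were lowest in replicate 3. Myh3, the embryonic myosin heavy chain, had its highest placebo library in replicate 1 instead. It had 151, 77, 383 and 49 reads in praliciguat libraries and 1243, 637, 1025 and 903 reads in placebo libraries. In CPM, Myh3 reached at most 11.17 with praliciguat and at least 21.82 with placebo. Such a separation, with praliciguat lower, was found for 2.54% of all genes. The log2 fold change of Myh3 was -2.72 ± 0.54 (SE, n = 4 each, adjusted p = 0.251).

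**Figure D4:**
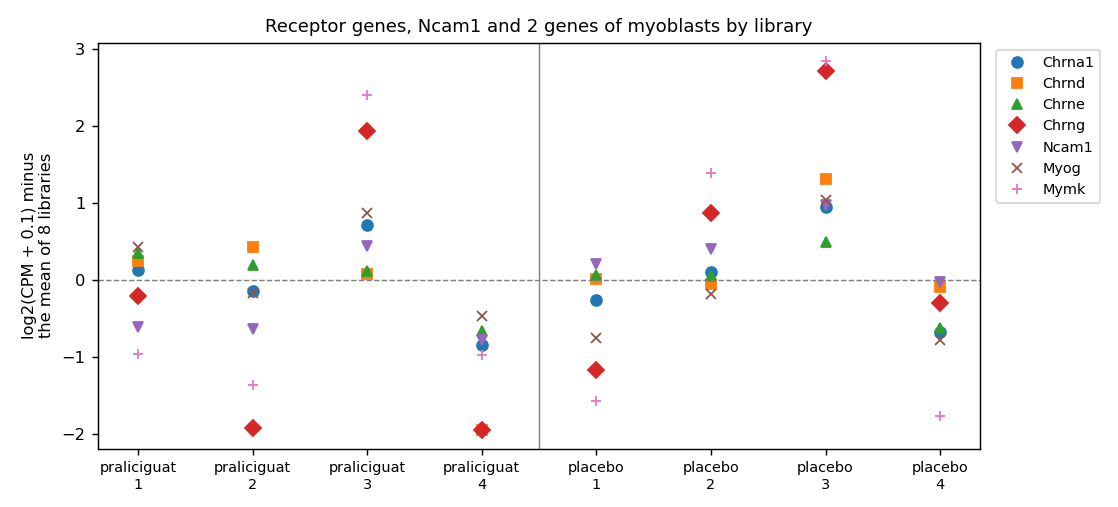
Log2(CPM + 0.1) of 5 receptor and junction genes, Myog and Mymk in each library, minus the gene's mean over 8 libraries, with praliciguat libraries on the left. Replicate 3 is above the mean for all 7 genes shown on both diets, and replicate 4 is below it for all 7. The 5 genes are a selection of the 10. In CPM, Rapsn, which is not shown, was lowest in replicate 3 on both diets. Musk was lowest there with praliciguat and Dok7 with placebo, while Dok7 was highest there with praliciguat. Chrnb1 and Lrp4 were highest in praliciguat replicate 4. Replicate numbers pair no libraries across the diets, and Myog and Mymk were chosen after their values were seen.

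Genes whose log2 CPM correlated most with a subunit's over the 8 libraries were listed as a description, without a test. For Chrna1 they were Wrn, a DNA helicase (Pearson r = 0.984, Spearman rho = 0.976), Rpusd4, a pseudouridine synthase (r = 0.983) and Mad2l1, a spindle checkpoint protein (r = 0.955). Without the 2 libraries farthest from the median of Chrna1 the values of r were 0.99, 0.976 and 0.916. The 3 genes varied less than Chrna1, which ran from 12.0 to 41.8 CPM. Wrn ran from 3.74 to 5.80 CPM, Rpusd4 from 10.2 to 12.3 CPM and Mad2l1 from 1.78 to 3.19 CPM. For Chrne they were Ufsp1 (r = 0.976), Pcdh20, a protocadherin (r = 0.966) and Baiap3 (r = 0.96), and without the 2 farthest libraries 0.834, 0.833 and 0.802. Pcdh20 was at only 0.142 to 1.34 CPM and Baiap3 at 0.107 to 0.589 CPM, so their lowest libraries held only a few reads. Ufsp1 lies 202 bases from Ache, the acetylcholinesterase gene, on chromosome 5. All 8 points of each relation share library preparation and depth scaling, and these genes are the top of 13569 compared.

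Around the receptor, 63 of 73 genes in 9 lists of the junction were tested, and 0 were called, the lowest adjusted p being 0.291 (Agrn). At an unadjusted edgeR p under 0.05, 4 were higher with praliciguat (1.95% of all genes tested were) and 2 lower (3.78% of all genes). Of the 63, 24 had a fold change above 0 and 39 below 0, with a median of -0.03 on the log2 scale. The diets did not overlap for 5 genes, with praliciguat lower for 3 (Agrn, Dtnb and Lama2; 2.54% of all genes) and higher for 2 (Bche and Myod1; 1.32% of all genes).

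Agrn, the gene of agrin, had the smallest p of the 63. Its counts are per gene and do not tell the nerve's agrin, which starts the LRP4 and MuSK signal, from agrin of other cells. Agrn averaged 23.5 ± 1.13 CPM in praliciguat libraries and 31.7 ± 3.39 CPM in placebo libraries (SD, n = 4 each), a log2 fold change of -0.43 ± 0.10 (SE, adjusted p = 0.291), with 589, 634, 826 and 622 reads in praliciguat libraries and 777, 1009, 864 and 772 reads in placebo libraries. The rest of its list of 10 had 4 genes above 0 and 5 below. Macf1, a crosslinker of actin and microtubules, averaged 79.1 ± 9.83 CPM in praliciguat libraries and 88.4 ± 6.07 CPM in placebo libraries.

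Of 11 tested genes of the synaptic basal lamina and acetylcholinesterase, 4 lay above 0 and 7 below, with a median of -0.19. Lama2, the laminin chain of the fibre's basal lamina, averaged 33.6 ± 8.94 CPM in praliciguat libraries and 51.7 ± 6.42 CPM in placebo libraries (log2 fold change -0.62 ± 0.18, adjusted p = 0.481). Bche, butyrylcholinesterase, averaged 17.4 ± 0.986 CPM in praliciguat libraries and 12.9 ± 3.02 CPM in placebo libraries (0.43 ± 0.16, adjusted p = 0.726). Ache, the enzyme that clears acetylcholine, averaged 36.2 ± 3.48 CPM in praliciguat libraries and 31.4 ± 9.52 CPM in placebo libraries (0.21 ± 0.20, adjusted p = 0.984).

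Of 8 tested genes of neuregulin and ETS factors, which switch on synaptic genes, 1 lay above 0 and 7 below. Erbb4, a neuregulin receptor, averaged 0.22 ± 0.249 CPM in praliciguat libraries and 0.819 ± 0.547 CPM in placebo libraries (log2 fold change -1.93 ± 0.88, adjusted p = 0.893), and Gabpa, the subunit of GABP that binds DNA, 31.9 ± 3.19 CPM in praliciguat libraries and 28.7 ± 6.01 CPM in placebo libraries. Among 7 genes of the synaptic dystrophin complex, Sntb1, a syntrophin, averaged 5.15 ± 1.41 CPM in praliciguat libraries and 2.70 ± 1.29 CPM in placebo libraries (0.93 ± 0.37, adjusted p = 0.779), and Dtnb, a dystrobrevin, 1.57 ± 0.095 CPM in praliciguat libraries and 1.95 ± 0.236 CPM in placebo libraries. Of the 3 sodium channel genes of muscle, 2 lay above 0 and 1 below. Scn4a, the channel that carries the fibre's action potential, averaged 494.9 ± 166 CPM in praliciguat libraries and 437.1 ± 115 CPM in placebo libraries.

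Of 10 genes that regulate the response to denervation, 3 lay above 0 and 7 below, with a median of -0.05. Myod1, a myogenic factor that binds E-boxes, averaged 32.1 ± 5.47 CPM in praliciguat libraries and 19.9 ± 4.46 CPM in placebo libraries (log2 fold change 0.69 ± 0.18, adjusted p = 0.364). Myog was at 7.63 ± 3.20 CPM in praliciguat libraries and 6.54 ± 4.49 CPM in placebo libraries (0.22 ± 0.46, adjusted p = 0.989). In the list of 5 glycosylation genes of congenital myasthenia, Dpagt1 averaged 16.8 ± 2.23 CPM in praliciguat libraries and 15.3 ± 0.632 CPM in placebo libraries, and Alg14 3.37 ± 0.708 CPM in praliciguat libraries and 4.05 ± 0.965 CPM in placebo libraries.

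Of 11 other nicotinic subunits, 4 were tested. Chrna9, a subunit of cochlear hair cells and some immune cells, averaged 2.02 ± 2.45 CPM in praliciguat libraries and 0.483 ± 0.273 CPM in placebo libraries (log2 fold change 2.03 ± 0.86, adjusted p = 0.832), but praliciguat replicate 1 alone held 144 of its reads, and the others held 33, 12 and 22. Chrnb2, a neuronal subunit, averaged 0.446 ± 0.111 CPM in praliciguat libraries and 0.58 ± 0.0872 CPM in placebo libraries. Of 5 tested genes of NCAM polysialylation and its partners, 4 lay below 0, with a median of -0.40. Cdh2, N-cadherin, averaged 1.03 ± 0.454 CPM in praliciguat libraries and 1.71 ± 0.173 CPM in placebo libraries (-0.72 ± 0.33, adjusted p = 0.893), and L1cam, an adhesion molecule related to NCAM, 4.05 ± 1.91 CPM in praliciguat libraries and 5.33 ± 0.818 CPM in placebo libraries.

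**Figure D5:**
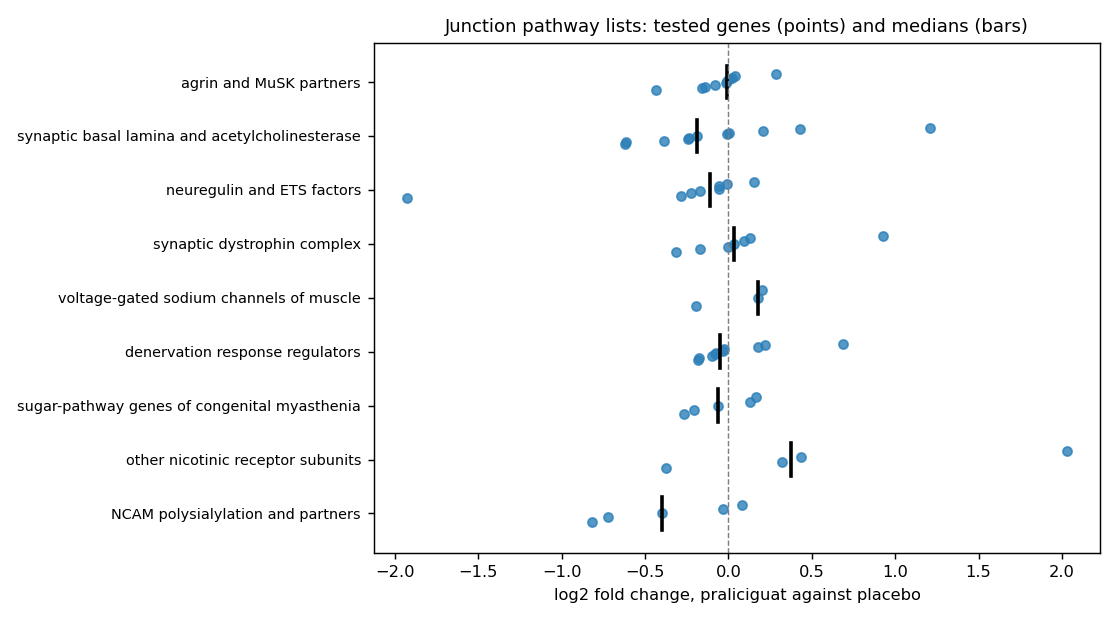
Log2 fold change of praliciguat against placebo for the 63 tested genes of 9 lists, with the median of each list as a bar. The medians lie between -0.40 (NCAM polysialylation and partners) and 0.38 (other nicotinic receptor subunits), and none of the genes was called.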

How the data were processed

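RNA was sequenced from 8 libraries of ischemic muscle, prepared with a kit for stranded mRNA per the labels' protocols. Tools named in the submitters' processing notes are FastQC, Trimmomatic, the aligner STAR (version 2.5.3a) and the counter RSEM (version 1.2.28), with mm10 as the genome. The sources used here do not give the strand setting of counting, and reads of overlapping antisense genes cannot be told apart. In the tables that the authors deposited, one for each library, expected counts are RSEM's estimates, in which reads that fit several genes are split. Counts of the 10 genes were whole in every library (tolerance 0.001). The deposited TPM values are scaled by effective length, per the file headers. Effective lengths were an offset in 1 alternative and set the fetal share.

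The labels give the groups. Replicate numbers follow accession order and pair nothing. The titles carry numbers in a lower run (replicates 1 and 2 of both diets) and an upper run (replicates 3 and 4), whose meaning is unstated. Libraries of a group differed by more than sampling noise.

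After rounding, expected counts went through edgeR 4.0.16 in R 4.3.3 (filterByExpr, TMM, quasi-likelihood F test, robust dispersion), with Benjamini-Hochberg adjustment over 13569 genes and a threshold of 0.05. CPM uses TMM-scaled totals. Fold changes are praliciguat over placebo. A count of 0 allows up to 3 counts, which is 0.0941 to 0.142 CPM of the total, for counting error only. The fit was tested on simulated data. Within-run values are differences of mean log2(CPM + 0.1). Alternatives were other scalings and filters, DESeq2 1.42.0, limma 3.58.1 on counts and log2 TPM, libraries left out, and the run as a block. Chosen after seeing the data were the unfiltered fit of Chrng, the Ncam1 overlap without praliciguat replicate 3 and the separate count of the core CAGCTG. Named were the 10 genes, from each list the called genes or else the 2 of lowest p (2 of these genes are not reported here), and the 3 genes most correlated with Chrna1 and Chrne. Ache, Myog, Mymk and Myh3 were chosen after their values were seen. The 10 genes and the lists were chosen with earlier results of these data known.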

Additional observations from a re-analysis of the deposited data

Results flagged for a closer look

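Over 86 groups of 4 libraries examined, 5 held a library whose gap to the next, relative to the group's range, was above Dixon's 95% critical value; chance flags about 1 in 20 groups. Chrnd was at 10.9 CPM in placebo replicate 3, against 4.10 to 4.41 CPM in the other placebo libraries. Chrng was at 1.90 CPM in praliciguat replicate 3, against 0.0355 to 0.353 CPM in the other praliciguat libraries. Ncam1 was at 15.5 CPM in praliciguat replicate 3, against 6.64 to 7.45 CPM in the other praliciguat libraries. L1cam was at 4.11 CPM in placebo replicate 2, below the 5.66 to 5.80 CPM of the other placebo libraries. The natural killer cell markers summed to 1.46 CPM in praliciguat replicate 3, against 0.284 to 0.392 CPM in the other praliciguat libraries.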

How the results depend on the processing

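None of the 10 genes was called under any of the settings run. The counts over all genes moved from 0 higher and 0 lower to 15 higher and 115 lower with the DESeq2 test, to 2 lower with limma-voom, to 3 lower with the run of title numbers as a block, to 11 lower at an adjusted p under 0.1, and to 6 higher and 79 lower without praliciguat replicates 3 and 4; leaving out 1 library at a time gave 0 higher and 0 to 5 lower, the 5 without placebo replicate 3. The cause was not tested. No paired analysis was possible because the labels give no replicate numbers that the diets share.

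The difference in the Chrng to Chrne log2 ratio stayed below 0 in all 14 alternatives, at -1.80 to -0.47 with 1 library left out (exact permutation p 0.114 to 0.743) and at -0.35 with 1 TPM added. Of the 14, 12 had a test, and their p was 0.114 to 0.743; with 3 against 4 libraries the smallest possible p is 0.0571 and with 2 against 4 it is 0.133, so those could not pass the threshold. Fold changes of Chrnd, Musk, Lrp4 and Ncam1 kept their sign in all 21 alternatives, but without praliciguat replicates 3 and 4 Lrp4 was 0.001, Chrnd -0.09 and Musk -0.25. The other genes turned sign in at least 1 alternative. With 1 library left out, Chrna1 ran from -0.39 to 0.31, Chrnb1 from -0.075 to 0.013, Chrne from -0.17 to 0.18, Dok7 from -0.14 to 0.094, Rapsn from -0.12 to 0.003 and Chrng from -3.02 to 0.41. Chrne was 0.005 with DESeq2 size factors, with no count filter and with the DESeq2 test. Without praliciguat replicates 3 and 4, Chrne was 0.23, Dok7 0.01 and Rapsn 0.009. Chrng had 1 to 97 reads in a library, so its lowest values carry wide counting intervals.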
